A study of Mus musculus with 4 samples.

Results

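A set of 47 mouse genes of DNA replication and mitosis was followed across 4 RNA-seq libraries of CD4+ T cells. The genes were chosen by symbol from the known machinery of the cell cycle, and all 47 were among the 11027 genes listed in the libraries. Of these, 27 act in DNA replication or entry into S phase and 19 in mitosis, and Mki67 is the usual marker of cycling cells. All 47 passed the filter on low counts, which kept 10960 genes. Wild-type C57BL/6 mice aged 7 to 8 weeks gave the naive CD4+ T cells, taken from spleen and lymph nodes. They were activated and infected in neutral conditions with a retrovirus carrying either Tox2, a nuclear protein of the TOX family, with green fluorescent protein (GFP) or GFP alone, and the GFP+ cells were sorted. Culture then followed in Th0 medium, which held antibodies against IFN-gamma, IL-4 and IL-2, or in Tfh-like medium, which held the same antibodies and IL-6. Each combination of virus and culture was 1 library, so no group has a replicate, and Tox2 came from a virus in all Tox2 libraries.

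Before a cell copies its DNA, the MCM2 to MCM7 ring is loaded onto replication origins by CDC6 and CDT1. CDC45 and the GINS complex then turn that ring into the active helicase, and polymerases, the PCNA clamp and nucleotide-making enzymes carry out synthesis. In mitosis, cyclin B with CDK1, the Aurora and Polo kinases, the spindle checkpoint and the kinetochore proteins condense, attach and separate the chromosomes. E2F factors are known to drive many replication genes as cells leave G1, and the MuvB complex with B-MYB and FOXM1 many mitosis genes in G2. T cells divide fast after activation, and transcripts of both kinds are known to be high in such cells. In bulk RNA, fewer cells in cycle and less of a transcript in each cell cannot be told apart.

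Total counts were 13015283 to 13673774 per library. Tox2 itself had 144 counts in Th0 GFP cells and 35297 in Th0 Tox2 cells, then 851 in Tfh-like GFP cells and 32246 in Tfh-like Tox2 cells, so it was high in both libraries labelled Tox2. All 8 CD4 T cell markers searched for were listed, with summed levels of 4706 to 5408 CPM (counts scaled to the same library total). Of other cell types, 1 of 2 CD8 T cell markers (Cd8b1, 127 to 206 counts), 2 of 5 B cell markers, 2 of 6 myeloid markers (17 to 39 counts summed) and 0 of 3 NK cell markers were listed. The B cell markers Ms4a1 and Cd79b were not among the listed genes and Cd79a had 10 to 24 counts. Ebf1, a B cell transcription factor, had 20 counts in Th0 GFP cells and 118 in Th0 Tox2 cells, then 380 in Tfh-like GFP cells and 385 in Tfh-like Tox2 cells. Its part in the results below was not tested.

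The set as a whole was highest in Th0 with GFP and lowest in Tfh-like with Tox2. Counts were scaled between libraries by TMM (trimmed mean of M values), and levels below are TMM-scaled CPM unless FPKM (per length of transcript) is named. Summed over the 27 replication genes, the level was 5472 in Th0 GFP cells and 4385 in Th0 Tox2 cells, then 3939 in Tfh-like GFP cells and 3266 in Tfh-like Tox2 cells. The last 3 are 80.1%, 72.0% and 59.7% of the level in Th0 with GFP. The 19 mitosis genes summed to 3942, 3402, 3101 and 2673 in the same order, the last 3 being 86.3%, 78.7% and 67.8% of Th0 with GFP. Both sums therefore put the libraries in the same order, and the replication sum was the further below Th0 with GFP in each of the other 3. All 47 genes took 1.04% of the listed counts in Th0 GFP cells and 0.637% in Tfh-like Tox2 cells.

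**Figure D1:**
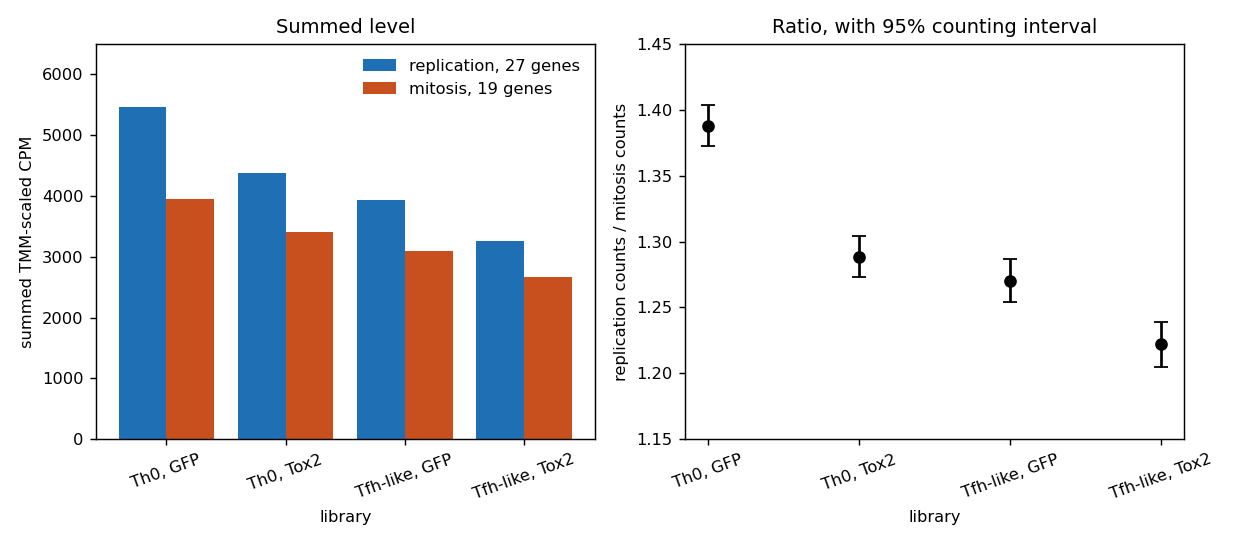
Left, summed TMM-scaled CPM of the 27 replication genes and the 19 mitosis genes in each of the 4 libraries; right, the ratio of their summed counts, with bars for the 95% counting interval and an axis that does not start at 0. The ratio was 1.39 in Th0 GFP cells and 1.22 in Tfh-like Tox2 cells, and each bar stands for 1 library.

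The balance of the sums also differed between libraries. Replication counts divided by mitosis counts gave 1.39 in Th0 with GFP (95% counting interval 1.37 to 1.40) and 1.29 in Th0 with Tox2 (1.27 to 1.30). The same ratio was 1.27 in Tfh-like with GFP (1.25 to 1.29) and 1.22 in Tfh-like with Tox2 (1.20 to 1.24). The interval of Th0 with GFP lies above the other 3, and the intervals of Th0 with Tox2 and Tfh-like with GFP overlap. Such intervals hold for counting error alone, as reads with no molecular identifier are not independent molecules, and they compare libraries and not conditions.

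Gene by gene, Th0 with GFP was the highest library for 42 of the 47 members, against 28.8% of all genes tested. Tfh-like with Tox2 was the lowest for 43, against 24.7%, and both held for 38, against 17.1%. The 5 members with another highest library were Pole, Cenpe, Cenpf and Mki67 (Th0 with Tox2) and E2f1 (Tfh-like with GFP). The 4 members with another lowest library were Gins1, Pcna, E2f2 and Cdc20, each lowest in Tfh-like with GFP. Both Tfh-like libraries lay below both Th0 libraries for 36 members, against 25.1% of all genes. Both Tox2 libraries lay below both GFP libraries for 11 members (23.4%), against 17.2% of all genes. Among them were Mcm3, Gins2, Ccne1, Chek1, Aurka and Birc5. In Aurka, Th0 with Tox2 (116.91) and Tfh-like with GFP (116.96) were almost level. Separation of the libraries by culture was thus seen in more members than separation by virus.

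**Figure D2:**
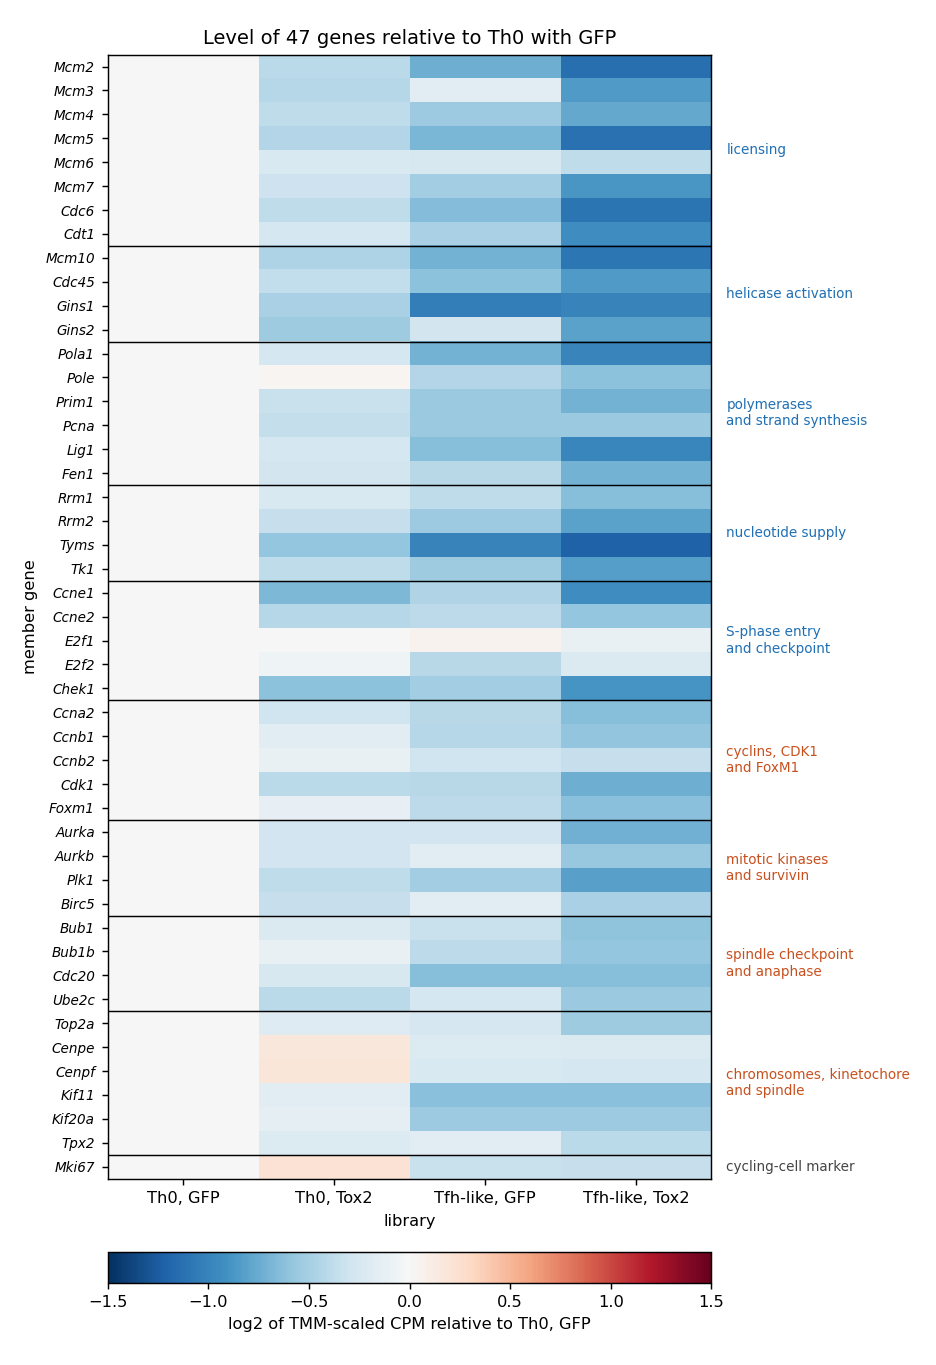
Level of each of the 47 genes (rows, grouped by role) in the 4 libraries (columns), as the log2 of TMM-scaled CPM relative to Th0 with GFP, blue for lower and red for higher. For 43 members the column of Tfh-like with Tox2 holds the lowest value, and Mki67, Cenpe, Cenpf and Pole are above 0 in Th0 with Tox2.

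For each gene an additive model of culture and virus was fitted over the 4 libraries in edgeR (quasi-likelihood test; p-values adjusted by Benjamini-Hochberg over all 10960 genes; threshold 0.05). The model keeps 1 residual degree of freedom, which is how far the Tox2 fold differs from Th0 to Tfh-like, moderated over genes. Spread among replicates therefore enters no p-value. "Fell" is used only of genes that passed it. Between Tfh-like and Th0 culture, 29 of the 47 members fell and 0 rose, where 24.2% of all genes passed, 9.96% falling and 14.3% rising. They comprise 17 of 27 replication genes, 11 of 19 mitosis genes and Mki67, and the fold was below 0 for all 47. With DESeq2 the count of mitosis genes was 6 and not 11. When libraries were scaled by total counts alone, 1649 of all genes fell and 1500 rose in the culture comparison, where the TMM scaling gave 1092 and 1564, and 10 further members passed.

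Between Tox2 and GFP virus, 4 of the 47 fell and 0 rose, where 6.81% of all genes passed, 2.74% falling and 4.07% rising. All 4 are replication genes: Ccne1, Gins2, Mcm3 and Mcm5. None of the 19 mitosis genes passed with edgeR, DESeq2 or limma-voom, and 9 of them had an unadjusted edgeR p under 0.05. Over the whole set 27 members had an unadjusted edgeR p under 0.05, all with a fold below 0, against 13.4% of all genes with such a p and a fold below 0. The median log2 fold for Tox2 was -0.31 over the replication genes and -0.21 over the mitosis genes, and for culture -0.49 and -0.36. Whether replication and mitosis genes differ in these folds was not tested, since genes of a list are not replicates.

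**Figure D3:**
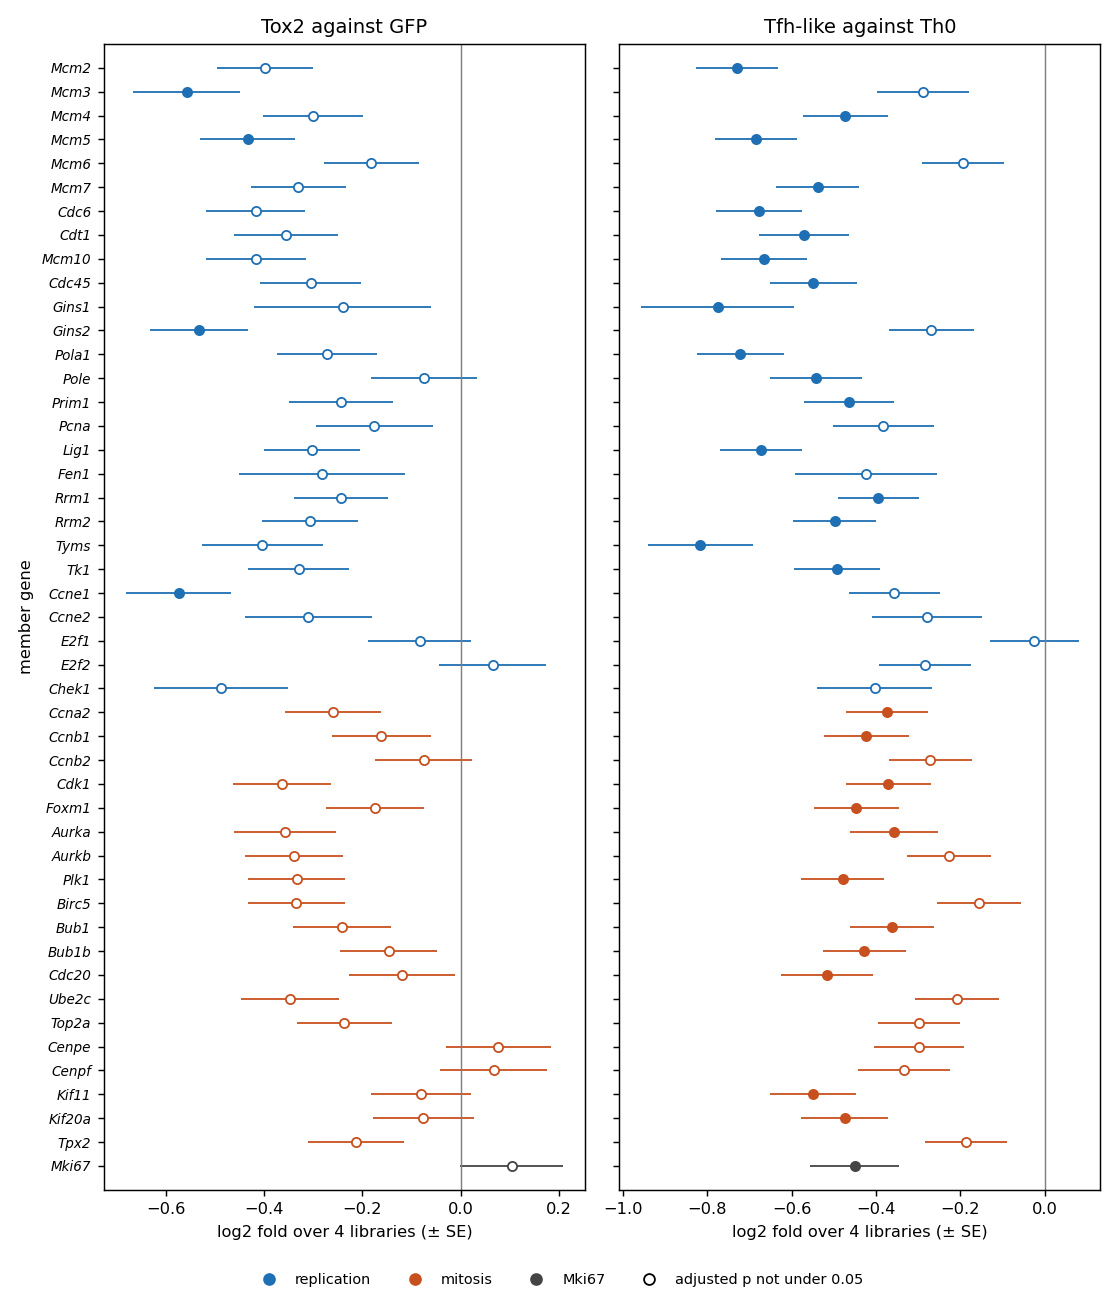
Log2 fold over the 4 libraries with its standard error for each of the 47 genes, Tox2 against GFP on the left and Tfh-like against Th0 on the right (the axes have different ranges); filled points passed edgeR's test at an adjusted p under 0.05. On the left 4 replication genes are filled, on the right 17 replication genes, 11 mitosis genes and Mki67.

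Licensing genes, which load the helicase at origins, were lower in Tfh-like culture and with Tox2. For culture 6 of 8 fell (median log2 fold -0.55) and for Tox2 2 of 8 (median -0.38), or 4 of 8 with total counts only. Mcm5 (chromosome 8, 75109569 to 75128439, plus strand; gene positions are GENCODE vM21 on GRCm38) had a level of 507 in Th0 GFP cells and 376 in Th0 Tox2 cells, then 316 in Tfh-like GFP cells and 234 in Tfh-like Tox2 cells. Mcm5 fell by 0.43 on the log2 scale with Tox2 (SE 0.10, edgeR adjusted p = 0.0489) and by 0.69 in Tfh-like culture (SE 0.10, edgeR adjusted p = 0.00417). Its Tox2 fold was -0.43 in both cultures, and both Tfh-like libraries lay below both Th0 libraries. The Mcm5 call for Tox2 was lost at a minimum of 5 CPM (edgeR adjusted p = 0.0542), with the scaling of the authors' FPKM (0.0584) and with TMM computed after the filter (0.0564), and its adjusted p ranged from 0.0283 to 0.0584 over the settings.

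Mcm3, on chromosome 1 (20802968 to 20820312, minus strand), had another order of libraries. Its level was 487 in Th0 GFP cells and 361 in Th0 Tox2 cells, then 436 in Tfh-like GFP cells and 271 in Tfh-like Tox2 cells, so both Tox2 libraries were below both GFP libraries. Mcm3 fell by 0.56 with Tox2 (SE 0.11, edgeR adjusted p = 0.0352) and passed in each of the 10 settings run (largest adjusted p 0.0431). For culture its log2 fold was -0.29 (SE 0.11, edgeR adjusted p = 0.103).

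The other ring subunits differed in size of change. Mcm2 had levels of 279.8, 212, 168 and 128 in the order Th0 with GFP, Th0 with Tox2, Tfh-like with GFP and Tfh-like with Tox2, and it fell by 0.73 in Tfh-like culture (SE 0.10, edgeR adjusted p = 0.00341). Mcm4, at 318, 245, 218 and 186 in that order, fell by 0.47 and Mcm7, at 302, 243, 211 and 165, by 0.54 for culture. Mcm6 had the smallest folds of the ring, at 579.7, 493, 489 and 447, with a culture fold of -0.19 (SE 0.10, edgeR adjusted p = 0.199) and a Tox2 fold of -0.18 (SE 0.10, adjusted p = 0.282). The 6 subunits of a single ring therefore stood at 45.7% (Mcm2) to 77.1% (Mcm6) of Th0 with GFP in Tfh-like with Tox2. The loaders Cdc6 and Cdt1 fell by 0.68 and 0.57 in Tfh-like culture.

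Of the genes that activate the helicase, 3 of 4 fell in Tfh-like culture (median -0.61) and 1 of 4 with Tox2 (median -0.36); for Tox2 the count was 0 in DESeq2 and 2 with total counts only. Gins2, a subunit of the GINS complex (chromosome 8, 120578633 to 120589304, minus strand), had levels of 69.2 in Th0 GFP cells and 47.7 in Th0 Tox2 cells, then 57.2 in Tfh-like GFP cells and 39.7 in Tfh-like Tox2 cells. Both Tox2 libraries were below both GFP libraries, and Gins2 fell by 0.53 with Tox2 (SE 0.10, edgeR adjusted p = 0.0328). In DESeq2 the adjusted p of Gins2 was 0.124. Of its exon bases 67.3% lie in exons of Gse1 on the opposite strand, and the strand setting of the counting is not known, so reads of these genes may not have been told apart. Gins1, another GINS subunit, had levels of 26.3, 18.7, 12.8 and 13.2 in the same order of libraries. Of the 4 pairs that differ in virus alone or culture alone, it was 2-fold apart in the culture pair with GFP (log2 fold -1.03), the only such case among the members, and it fell by 0.78 for culture (SE 0.18, edgeR adjusted p = 0.0251; 0.0749 in DESeq2). Mcm10 and Cdc45 fell by 0.67 and 0.55 in Tfh-like culture.

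Among the polymerase and strand synthesis genes 4 of 6 fell in Tfh-like culture (median -0.50), or 3 of 6 in DESeq2. For Tox2, 0 of 6 passed with edgeR or DESeq2 (median -0.26), and 2 of 6 had an unadjusted edgeR p under 0.05. Pola1, the catalytic subunit of polymerase alpha, fell by 0.72 for culture and Lig1, which joins Okazaki fragments, by 0.67. Pcna, the sliding clamp, had levels of 399 in Th0 GFP cells and 312 in Th0 Tox2 cells, then 271 in Tfh-like GFP cells and 271 in Tfh-like Tox2 cells. Its culture fold was -0.38 (SE 0.12, edgeR adjusted p = 0.0611). Pole, the catalytic subunit of polymerase epsilon, had 149, 153, 110.4 and 97.1 in the same order and fell by 0.54 for culture (SE 0.11, edgeR adjusted p = 0.0146), with a Tox2 fold of -0.07 (SE 0.11). Fen1, the flap endonuclease, had the lowest level of the group at 16.6 to 10.2, and 84.2% of its exon bases lie in exons of genes on the opposite strand.

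All 4 genes of nucleotide supply fell in Tfh-like culture (median -0.50), and 0 of 4 passed for Tox2 with edgeR or DESeq2 (median -0.32), although all 4 had an unadjusted edgeR p under 0.05. Tyms, thymidylate synthase, had levels of 113 in Th0 GFP cells and 75.2 in Th0 Tox2 cells, then 56.3 in Tfh-like GFP cells and 48.6 in Tfh-like Tox2 cells. It had the lowest culture fold of all 47 members and fell by 0.82 (SE 0.12, edgeR adjusted p = 0.00548). Rrm1 and Rrm2, the ribonucleotide reductase subunits, fell by 0.39 and 0.50 and Tk1, thymidine kinase, by 0.49.

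Of the genes of S-phase entry and its checkpoint, 0 of 5 passed for culture with edgeR, DESeq2 or limma-voom (median -0.28; 3 of 5 at an unadjusted edgeR p under 0.05), and 1 passed for Tox2 (median -0.31). With total counts only, 3 of the 5 (Ccne1, E2f2 and Chek1) passed for culture in edgeR. Ccne1, encoding cyclin E1 (chromosome 7, 38097984 to 38107534, minus strand), had levels of 70.7 in Th0 GFP cells and 44.5 in Th0 Tox2 cells, then 51.8 in Tfh-like GFP cells and 37.2 in Tfh-like Tox2 cells. Both Tox2 libraries were below both GFP libraries, and Ccne1 had the lowest Tox2 fold of the 47. It fell by 0.57 with Tox2 (SE 0.11, edgeR adjusted p = 0.0320; 0.0933 in DESeq2), and its culture fold was -0.36 (SE 0.11, edgeR adjusted p = 0.0557). That culture fold passed in 3 of the other 9 settings, with edgeR adjusted p-values of 0.0461 (DESeq2 size factors), 0.0240 (total counts only) and 0.0298 (GC and length trends removed).

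Of the E2F activators, E2f1 was near level, and E2f2 was lower in both Tfh-like libraries than in both Th0 libraries. E2f1 had 58.5, 58.5, 60.9 and 54.2 in the order Th0 with GFP, Th0 with Tox2, Tfh-like with GFP and Tfh-like with Tox2, the narrowest range of any member as a ratio of highest to lowest. Its folds were -0.08 for Tox2 (SE 0.10, edgeR adjusted p = 0.650) and -0.02 for culture (SE 0.10, edgeR adjusted p = 0.889). E2f2 had 257, 246, 193 and 221 in that order, with a Tox2 fold of 0.07 (SE 0.11, edgeR adjusted p = 0.743), the only Tox2 fold above 0 among the replication genes. The culture fold of E2f2 was -0.28 (SE 0.11, edgeR adjusted p = 0.110) and did not pass. In the culture pair with GFP alone it was -0.41 (counting interval -0.49 to -0.34). Chek1, the checkpoint kinase, had levels of 34.1, 22.3, 23.7 and 18.5 and a Tox2 fold of -0.49 (SE 0.14, edgeR adjusted p = 0.0821).

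In mitosis, the cyclins, Cdk1 and Foxm1 were lower in Tfh-like culture, where 4 of 5 fell (median -0.37). In DESeq2 1 of 5 did, and the calls of Ccna2, Ccnb1 and Cdk1 were lost. Cdk1, the kinase that starts mitosis, had levels of 178 in Th0 GFP cells and 134 in Th0 Tox2 cells, then 133 in Tfh-like GFP cells and 107 in Tfh-like Tox2 cells. It fell by 0.37 for culture (SE 0.10, edgeR adjusted p = 0.0403), and had the lowest Tox2 fold of the mitosis genes, -0.36 (SE 0.10, edgeR adjusted p = 0.0808). Ccnb1, cyclin B1, had 104, 92.9, 77.4 and 69.2 in the same order and fell by 0.42 for culture (edgeR adjusted p = 0.0262; 0.0925 in DESeq2). Ccnb2, cyclin B2, had 178, 165, 144 and 140.2, with folds of -0.27 for culture and -0.08 for Tox2 that did not pass. Foxm1, the transcription factor of G2 genes, fell by 0.45 for culture.

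Of the mitotic kinases and survivin, 2 of 4 fell for culture (1 of 4 in DESeq2; median -0.29), while their Tox2 folds of -0.33 to -0.36 all had an unadjusted edgeR p under 0.05 and did not pass after adjustment. Plk1, the Polo kinase, had levels of 228 in Th0 GFP cells and 175 in Th0 Tox2 cells, then 158 in Tfh-like GFP cells and 129.6 in Tfh-like Tox2 cells, and fell by 0.48 for culture (edgeR adjusted p = 0.0163). Aurka had 143, 117, 117 and 87.0 in that order; its culture fold was -0.36 (SE 0.10, edgeR adjusted p = 0.04996, just under the threshold) and this call was lost in 5 of the other 9 settings. Birc5, survivin, had 161, 127, 144 and 115, with a Tox2 fold of -0.33 and the smallest culture fold of the mitosis genes, -0.16 (SE 0.10). Aurkb, its partner in the chromosome passenger complex, had 208, 171, 185 and 140.3 with folds of -0.34 and -0.23. Birc5 and Aurkb thus both had the Tox2 libraries below the GFP libraries.

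Of the spindle checkpoint and anaphase genes 3 of 4 fell for culture (median -0.40). In DESeq2, and with GC and length trends removed, 2 of 4 did, and the call of Bub1 was lost. For Tox2, 0 of 4 passed with edgeR or DESeq2 (median -0.19), and 2 of 4 had an unadjusted edgeR p under 0.05. Cdc20, which activates the anaphase-promoting complex, had levels of 256 in Th0 GFP cells and 217 in Th0 Tox2 cells, then 164 in Tfh-like GFP cells and 165 in Tfh-like Tox2 cells, and fell by 0.52 for culture (edgeR adjusted p = 0.0172). For Tox2 the Th0 pair had a fold of -0.24 and the Tfh-like pair of 0.00. Ube2c, the ubiquitin-conjugating enzyme of the same complex, had 213, 161, 178 and 145 in that order, with a Tox2 fold of -0.35 (SE 0.10, edgeR adjusted p = 0.0879) and a culture fold of -0.21 (edgeR adjusted p = 0.181). Of its exon bases 22.8% lie in exons of Tnnc2 on the opposite strand.

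Chromosome, kinetochore and spindle genes had the smallest Tox2 folds of the role groups, with a median of -0.08 (0 of 6 passed with edgeR or DESeq2, 1 at an unadjusted edgeR p under 0.05). For culture 2 of 6 fell (median -0.32), or 5 of 6 with total counts only. Top2a, the topoisomerase that untangles sister chromosomes, had 758 in Th0 GFP cells and 662 in Th0 Tox2 cells, then 634 in Tfh-like GFP cells and 523 in Tfh-like Tox2 cells. Its folds were -0.24 for Tox2 (edgeR adjusted p = 0.174) and -0.30 for culture (edgeR adjusted p = 0.0676). Kif11, the motor that separates the spindle poles, had 211, 189, 137 and 136 in that order and fell by 0.55 for culture (SE 0.10, edgeR adjusted p = 0.0112), the lowest culture fold of the mitosis genes. The kinetochore genes Cenpe (87.0, 97.8, 75.4 and 74.6) and Cenpf (86.3, 97.5, 73.9 and 71.7) had Tox2 folds of 0.08 and 0.07. Tpx2, a spindle assembly factor, had 232, 201, 205 and 175, with a culture fold of -0.19 (edgeR adjusted p = 0.213).

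Mki67, the proliferation marker (chromosome 7, 135689784 to 135716361, minus strand), had a fold above 0 for Tox2 and below 0 for culture. It had levels of 663 in Th0 GFP cells and 771 in Th0 Tox2 cells, then 525 in Tfh-like GFP cells and 521 in Tfh-like Tox2 cells, so the Th0 libraries were both above the Tfh-like libraries and Th0 with Tox2 was the highest. Its Tox2 fold was 0.10 (SE 0.10, edgeR adjusted p = 0.566; -0.03 to 0.12 over the settings), and it fell by 0.45 in Tfh-like culture (SE 0.11, edgeR adjusted p = 0.0247). Taken alone, the Th0 pair gave a Tox2 fold of 0.22, with a counting interval of 0.18 to 0.26, and the Tfh-like pair one of -0.01, with an interval of -0.06 to 0.04.

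Levels of different members are comparable only per length. In FPKM, the most abundant in Th0 with GFP were Pcna at 131, Cdc20 at 108, Mcm3 at 103, Mcm5 at 100.5 and Mcm6 at 98.2, and the least abundant were Cenpf at 4.42, Fen1 at 5.41 and Pola1 at 5.71. In Tfh-like with Tox2 the FPKM of Pcna was 91.0, of Mcm6 77.2, of Mcm3 58.1 and of Mcm5 47.1. The near-equal Mcm5 and Mcm6 of Th0 with GFP were thus 47.1 and 77.2 in the library farthest from it.

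Single pairs of libraries show how far each difference exceeds counting error. In Th0, the 95% counting interval put 40 of 47 members lower with Tox2 and 3 higher (Mki67, Cenpe and Cenpf), where it put 27.7% of all genes lower and 28.5% higher. In Tfh-like, 34 were lower and 1, E2f2, was higher with Tox2, against 27.0% and 25.3%. Between Tfh-like and Th0, 46 members were lower with GFP (31.2% of all genes) and 45 with Tox2 (29.2%), and 0 were higher. The median log2 fold for Tox2 was -0.37 for replication and -0.20 for mitosis genes in Th0, and -0.28 and -0.22 in Tfh-like. The culture medians were -0.54 and -0.34 with GFP and -0.45 and -0.39 with Tox2, while the medians of all genes were within 0.01 of 0 in each pair. In the order Tox2 in Th0, Tox2 in Tfh-like, culture with GFP and culture with Tox2, 1.56%, 1.9%, 3.11% and 2.86% of all genes were 2-fold lower and 3.18%, 2.86%, 7.78% and 6.56% were 2-fold higher, and among the members Gins1 alone was 2-fold apart in any of these 4 pairs, in the culture pair with GFP. Each of these is a difference between 2 libraries, with no replicate check.

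The Tox2 fold was then compared between the cultures. The interval of the difference (Tfh-like minus Th0) included 0 for 32 of 47 members, lay above 0 for 8 and below 0 for 7, where it included 0 for 63.5% of all genes, lay above 0 for 15.8% and below 0 for 20.6%. The share of members is near that of all genes. The differences farthest above 0 were in Gins1 (0.52, interval 0.14 to 0.91), Tyms (0.37, 0.18 to 0.56) and Pcna (0.36, 0.27 to 0.44). In these 3 the Th0 folds were -0.49, -0.58 and -0.35 and the Tfh-like folds 0.04, -0.21 and 0.00. The differences farthest below 0 were in Mcm3 (-0.26, interval -0.34 to -0.17), with folds of -0.43 (Th0) and -0.69 (Tfh-like), and in Mki67 (-0.23, -0.29 to -0.16). No test of this difference was possible, since it uses the only residual degree of freedom.

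**Figure D4:**
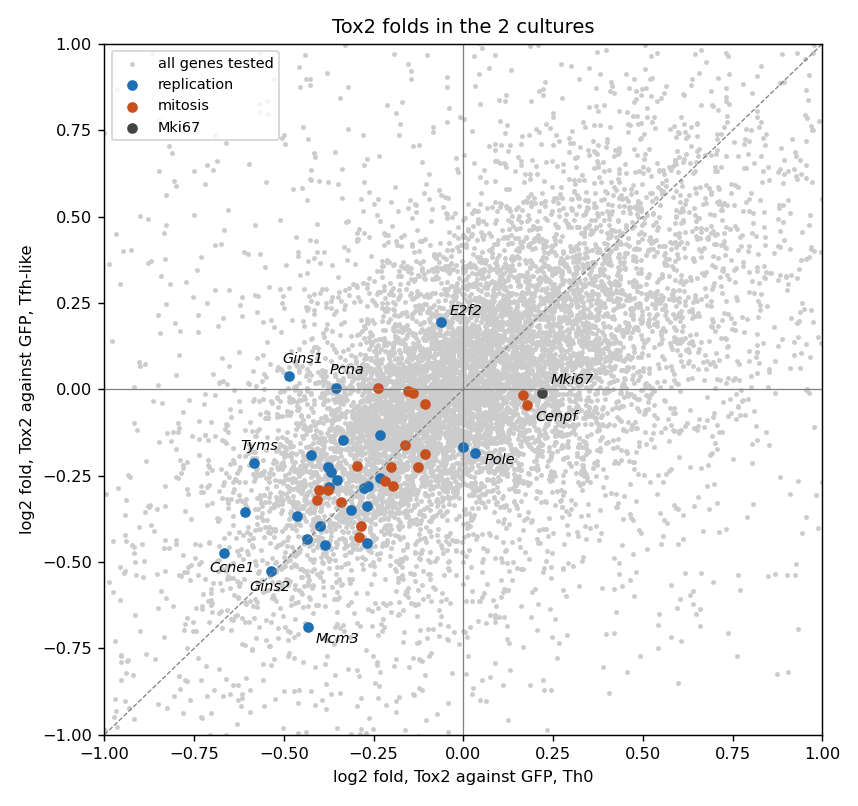
Log2 fold of Tox2 against GFP in Th0 (horizontal) and in Tfh-like culture (vertical) for all genes tested (grey), replication genes (blue), mitosis genes (orange) and Mki67 (dark), with a dashed line of equal folds; genes outside the range of -1 to 1 are not drawn. Most members lie in the lower left part, with Gins1 and Pcna near 0 on the vertical axis and Mki67 and Cenpf to the right of 0.

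Transcript length moved with the Tox2 fold in Th0. Across all 10960 genes Spearman's rho between length and fold was 0.30 for the Th0 pair and 0.13 for the Tfh-like pair, and across the 47 members 0.30 and 0.03. Genes share libraries and are not independent. The 4 members above 0 in Th0 were among the longest: Cenpf, Pole, Mki67 and Cenpe ranked 1, 2, 4 and 7 of 47 in length. With the length trend of all genes removed, the Th0 folds were 0.06 for Mki67, 0.04 for Cenpe, -0.09 for Cenpf and -0.16 for Pole, and the medians -0.32 for replication and -0.19 for mitosis genes. The part of length in these folds was not tested further.

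The promoters of the replication and mitosis genes were compared in sequence. RefSeq promoter windows on GRCm38.p6, from 250 bases before to 50 bases after the start that RefSeq gives, were found for 37 of the 47 members. Windows were searched on both strands for 4 E2F words (TTTCCCGC, TTTCGCGC, TTTGCCGC and TTTGGCGC), for 2 words of the cell cycle homology region or CHR (TTTGAA and TTCGAA), which MuvB binds, and for the NF-Y box CCAAT. No E2F word contains a CHR word or CCAAT, but words that lie side by side can overlap. Shown are the replication and mitosis members with the smallest edgeR p for Tox2 that had a window, 3 of each, 5′ to 3′ on the strand of the gene, with every matched word in capitals.
Ccne1: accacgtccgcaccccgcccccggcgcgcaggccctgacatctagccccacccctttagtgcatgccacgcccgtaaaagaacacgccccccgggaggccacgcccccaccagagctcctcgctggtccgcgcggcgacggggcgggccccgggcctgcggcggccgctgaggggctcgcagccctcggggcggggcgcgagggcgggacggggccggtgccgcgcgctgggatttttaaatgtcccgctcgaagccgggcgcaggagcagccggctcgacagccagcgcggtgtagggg
Mcm3: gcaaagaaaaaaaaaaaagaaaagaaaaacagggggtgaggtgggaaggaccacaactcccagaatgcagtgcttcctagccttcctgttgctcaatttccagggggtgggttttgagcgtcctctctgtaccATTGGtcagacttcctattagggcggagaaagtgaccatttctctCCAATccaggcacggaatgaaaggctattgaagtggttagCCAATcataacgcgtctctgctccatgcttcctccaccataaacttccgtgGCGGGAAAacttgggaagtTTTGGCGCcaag
Mcm5: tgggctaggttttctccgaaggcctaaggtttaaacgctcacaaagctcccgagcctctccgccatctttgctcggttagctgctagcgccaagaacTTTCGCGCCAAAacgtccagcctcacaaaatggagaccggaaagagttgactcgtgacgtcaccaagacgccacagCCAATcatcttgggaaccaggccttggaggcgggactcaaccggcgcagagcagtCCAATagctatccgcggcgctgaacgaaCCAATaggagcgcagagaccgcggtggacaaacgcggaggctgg
Cdk1: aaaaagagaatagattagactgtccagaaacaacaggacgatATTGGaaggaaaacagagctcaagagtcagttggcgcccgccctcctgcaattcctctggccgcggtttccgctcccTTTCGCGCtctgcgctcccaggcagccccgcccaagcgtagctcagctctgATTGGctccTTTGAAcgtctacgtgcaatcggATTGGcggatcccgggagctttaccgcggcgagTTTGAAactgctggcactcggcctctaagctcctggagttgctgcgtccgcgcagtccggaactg
Ube2c: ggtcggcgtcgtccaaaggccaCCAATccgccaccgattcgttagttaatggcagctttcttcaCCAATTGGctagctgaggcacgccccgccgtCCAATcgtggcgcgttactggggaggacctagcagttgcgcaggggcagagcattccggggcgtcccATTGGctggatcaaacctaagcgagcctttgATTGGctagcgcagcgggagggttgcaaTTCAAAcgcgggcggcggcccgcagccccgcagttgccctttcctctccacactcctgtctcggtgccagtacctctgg
Aurka: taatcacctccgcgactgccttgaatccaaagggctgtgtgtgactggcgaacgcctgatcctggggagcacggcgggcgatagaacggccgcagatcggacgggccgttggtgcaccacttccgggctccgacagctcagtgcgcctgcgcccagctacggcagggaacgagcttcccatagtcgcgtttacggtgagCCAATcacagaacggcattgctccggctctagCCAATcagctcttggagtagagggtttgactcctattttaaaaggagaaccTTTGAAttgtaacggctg

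The windows lie at chr7:38107441-38107740 (Ccne1, minus strand), chr1:20820263-20820562 (Mcm3, minus), chr8:75109259-75109558 (Mcm5, plus), chr10:69352863-69353162 (Cdk1, minus), chr2:164769679-164769978 (Ube2c, plus) and chr2:172370521-172370820 (Aurka, minus). For Mcm5 and Aurka the last 25 bases of the window were found in no GENCODE vM21 transcript, and the Mcm5 window ends before the GENCODE start of the gene. Of the 6 genes, Ccne1, Mcm3 and Mcm5 passed the test for Tox2, and Cdk1, Ube2c and Aurka did not. Mcm3 and Mcm5 each held 2 E2F words and 3 CCAAT words and 0 CHR words. The 2 E2F words of Mcm5 overlap, 1 on each strand, and make a single run of capitals. Cdk1 held 2 CHR words, 3 CCAAT words and 1 E2F word, Ube2c 1 CHR and 6 CCAAT words, of which 2 overlap, and Aurka 1 CHR and 2 CCAAT words. Ccne1 held none of these words in this window.

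Over the groups, E2F words were in 8 of 22 replication windows (36.4%) and 1 of 14 mitosis windows (7.14%), against 4.21% of the windows of all genes tested. CHR words were in 4 of 22 replication windows (18.2%) and 11 of 14 mitosis windows (78.6%), against 13.4%. CCAAT was in 13 of 22 (59.1%) and 13 of 14 (92.9%), against 39.2%. All 11 mitosis windows with a CHR word also held CCAAT, a combination in 5.93% of the windows of all genes tested. A match is a description of these letters and not a binding site, and the promoters were not assayed here.

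**Figure D5:**
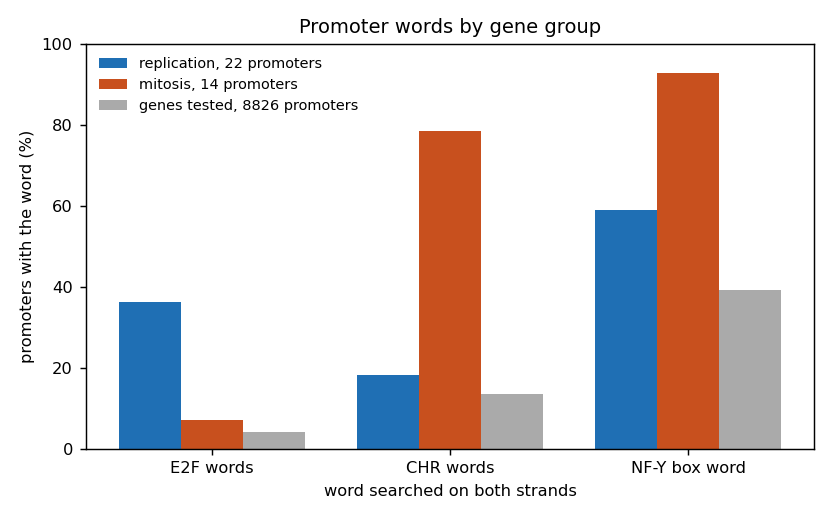
Share of promoter windows (vertical axis, percent) that held an E2F word, a CHR word or the NF-Y box, for replication genes (22 windows), mitosis genes (14) and all genes tested (8826). E2F words were in 36.4% of replication and 7.14% of mitosis windows, and CHR words in 18.2% and 78.6%.

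Further genes of the same pathways were read from lists with no member in common with the 47. Of 56 other replication genes measured, 31 fell (55.4%) and 1 rose in Tfh-like culture (median log2 fold -0.39). With Tox2, 8 fell (14.3%; median -0.28). Of all genes tested, 9.96% fell and 14.3% rose for culture, and 2.74% fell and 4.07% rose with Tox2. The nuclease Exo1 fell by 0.90 (edgeR adjusted p = 0.00212) and the chromatin remodeller Hells by 0.83 for culture, and Pold4, a small subunit of polymerase delta, rose by 0.74. With Tox2 the polymerase epsilon subunit Pole3 fell by 0.66 (edgeR adjusted p = 0.0235), the dUTPase Dut by 0.60 and the histone chaperone subunit Chaf1b by 0.65. Of 75 other mitosis genes, 39 fell (52.0%) and 0 rose for culture (median -0.42). With Tox2, 4 fell (5.33%) and 0 rose (median -0.20). The condensin genes Smc4 and Ncapg2 fell by 0.95 and 0.94 and the kinetochore gene Spc24 by 0.76 for culture, and Gtse1, Cenpm, Cks2 and Cks1b fell with Tox2, Gtse1 by 0.67 (edgeR adjusted p = 0.0214) and Cenpm by 0.68. None of the 4 members that fell with Tox2 was a mitosis gene. The 4 mitosis genes outside the 47 that fell with Tox2 are 5.33% of their list, against 2.74% of all genes tested.

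Of 24 genes of cell-cycle transcription and CDK control, 10 fell (41.7%) and 1 rose (4.17%) for culture (median -0.24). The shares of all genes tested were 9.96% and 14.3%. With Tox2 (median -0.16), 2 fell (8.33%) and 1 rose (4.17%), against 2.74% and 4.07% of all genes tested. Cdk6, a G1 kinase, had 1383 counts in Th0 GFP cells and 735 in Th0 Tox2 cells, then 2948 in Tfh-like GFP cells and 1980 in Tfh-like Tox2 cells. It rose by 1.31 in Tfh-like culture (SE 0.12, edgeR adjusted p = 0.000962) and fell by 0.78 with Tox2 (SE 0.12, edgeR adjusted p = 0.0205), so its culture fold had the opposite sign to those of the 47 members. Mybl2, encoding B-MYB, fell by 0.53 with Tox2 (edgeR adjusted p = 0.0346) and had a culture fold of 0.03. Tfdp2, a dimer partner of E2F factors, rose by 0.56 with Tox2. Skp2, E2f8 and Wee1 fell for culture by 0.84, 0.53 and 0.52.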

How the data were processed

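RNA was measured in 4 libraries, 1 for each combination of virus and culture, each placed in its group by its title. Trizol was used to extract total RNA and BGI built the libraries, per the labels' protocols. Per the file headers the authors deposited a whole-number read count and an FPKM for each gene. Tools named in the submitters' processing notes are Bowtie2, Trim Galore 0.4.4, Subread, featureCounts, MACS2 and edgeR, with the build mm10. Not given in the sources used here are the annotation, the strand setting and the tool behind each column. Of the 47 members, 7 have over 10% of their exon bases in another gene's exons (Fen1, Gins2, Kif20a, Ube2c, Ccne2, Mcm7 and Ccna2), and their values are uncertain. The deposited list was already reduced: each gene had at least 0.658 CPM in its second-highest library.

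Counts were scaled by TMM over all listed genes and tested with edgeR 4.0.16 (R 4.3.3; quasi-likelihood, culture plus virus, 1 CPM or more in at least 1 library; median prior df 5.52, biological coefficient of variation 0.105). Folds of single pairs used a prior count of 2 and exact 95% conditional binomial intervals; a gene was 2-fold apart at a log2 fold of at least 1 in size with an interval that excludes 0. The intervals of differences used the delta method, and those of ratios came from exact 95% binomial intervals. FPKM was used for levels between genes and for the authors' scaling. Alternatives were DESeq2 1.42.0, limma-voom (limma 3.58.1), other scalings, filters and prior counts, and removal of GC and length trends. The procedure was also run on counts simulated with the biological coefficient of variation fitted here. As that value came from libraries without replicates, the simulation cannot check the spread among replicates. The genes, lists and tests were chosen with earlier results of these data known. Genes printed with the value in every library were the MCM ring, Mki67, Pcna, Top2a, Ccnb1, Cdk1, the members passing for Tox2, the 3 highest and 3 lowest folds of each group per effect and the largest differences between cultures; other pathway genes were the 3 with the smallest adjusted p in each direction. Genes named beyond these were chosen after their values were seen. A few list genes are not reported here.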

Additional observations from a re-analysis of the deposited data

How the results depend on the processing

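Medians of replication and mitosis genes stayed below 0 under every scaling, prior count and trend setting run, from -0.39 to -0.32 and -0.22 to -0.17 for Tox2 in Th0, -0.30 to -0.25 and -0.24 to -0.19 for Tox2 in Tfh-like, -0.63 to -0.51 and -0.44 to -0.32 for culture with GFP, and -0.49 to -0.44 and -0.43 to -0.34 for culture with Tox2. Replication members that fell with Tox2 numbered 2 in DESeq2, 7 with total counts only and 7 with GC and length trends removed, where 4 are reported. All genes called for Tox2 numbered 492 in DESeq2 and 1193 with total counts only, against 746, and for culture 1619 in DESeq2 against 2656. Mitosis members that fell for culture numbered 6 in DESeq2 against 11. Scaling by total counts alone shifted the median of all genes by -0.11 between Tfh-like and Th0 with GFP and gave a mitosis median of -0.44 there, against -0.34. The log2 ratio of replication to mitosis, relative to Th0 with GFP, was -0.11 for the Th0 Tox2 library, -0.13 for Tfh-like GFP and -0.18 for Tfh-like Tox2. As a difference of mean log2 levels it was -0.16, -0.17 and -0.25. With Mki67 counted as mitosis it was -0.18 for Th0 Tox2 and -0.22 for Tfh-like Tox2, and without the highest member of each list (Mcm6 and Top2a) -0.23 in the latter. The cause of these shifts was not tested. The alternative of total counts only, and the removal of trends, which was chosen after seeing the data, were the 2 settings that added calls for Tox2 among the members. No direction was reversed for a called result. No paired analysis was possible because each group is 1 library and the labels give no replicate numbers; leaving out a library was likewise not run, as it would empty a group. A count of 0 allows up to 3 counts; no member came near that floor.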

Other observations

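Replication-dependent histone genes, whose transcripts rise in S phase, were listed for 7 symbols. With edgeR 0 passed for Tox2 or culture, against 6.81% and 24.2% of all genes tested. For each effect 3 of 7 had an unadjusted edgeR p under 0.05, against 27.4% (Tox2) and 37.6% (culture) of all genes tested. Some of the 7 had few counts, such as Hist1h4m with 5 to 17. The most abundant, Hist1h2ao, had 438 counts in Th0 GFP cells and 218 in Th0 Tox2 cells, then 205 in Tfh-like GFP cells and 190 in Tfh-like Tox2 cells. Hist1h2ap had 425, 210.0, 206 and 184 counts in that order. In both genes Th0 with GFP stood apart from the other 3 libraries. Histone genes have near-identical copies that can share or lose reads, so these values are uncertain.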
